A study of Mus musculus with 6 samples.

Results

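The transcription factors described here set or oppose the mesenchymal state of a cell. They are the 9 genes *Snai1*, *Snai2*, *Twist1*, *Twist2*, *Zeb1*, *Zeb2*, *Prrx1*, *Grhl2* and *Ovol1*, taken by symbol from the 19078 genes listed in the authors' deposited comparison, and all 9 were found. RNAseq was performed on 3 *Ms4a15* OE and 3 control libraries of poly(A)-selected RNA from immortalized mouse fibroblasts (MF). According to the study's methods, these are male embryonic fibroblasts in which *Gpx4*, the gene of a lipid peroxide reductase, can be deleted through Cre-ERt2, a Cre recombinase that tamoxifen activates. Both groups share this background, and no tamoxifen treatment is given for these libraries. *Ms4a15* OE cells carry a CRISPR activation system with a guide to *Ms4a15*, which switches on the endogenous gene. They were used as antibiotic-selected pools rather than clones. The labels give the genotype of the control as wild type, the series' design calls the control parental, and the methods describe an infection with empty lentivirus, and the sources do not settle whether control cells went through the same infection. Nothing says that the 3 libraries of a group came from separate cultures. The p-values then rest only on variation between libraries as the authors' fit estimated it, which may be technical.

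Snail (*Snai1*, *Snai2*), Twist (*Twist1*, *Twist2*) and Zeb (*Zeb1*, *Zeb2*) proteins are the classical drivers of epithelial-to-mesenchymal transition. Snail and Zeb proteins bind E-boxes, short DNA elements, in promoters of epithelial genes such as *Cdh1* (E-cadherin) and repress them by recruiting corepressors. Twist proteins are basic helix-loop-helix factors that bind DNA as dimers, often with E proteins, and ID proteins take E proteins out of such dimers. PRRX1 is a homeodomain factor of embryonic mesenchyme and of fibroblasts. GRHL2 and OVOL1 act on the other side: they maintain epithelial gene expression, and both families are known to repress *Zeb1* in epithelia. Fibroblasts are mesenchymal cells, in which the Snail, Twist, Zeb and Prrx factors are normally expressed and epithelial factors are low.

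The E-box preferred by Snail and Zeb proteins reads CAGGTG, or CACCTG on the other strand. Promoter windows of 300 bases, from 250 bases before a transcription start to 50 after it, were taken from RefSeq on GRCm38.p6. Of the 9 factors, 5 had such a window (*Snai1*, *Twist1*, *Twist2*, *Zeb2* and *Prrx1*, with 8 windows in all), and *Snai1* was the only factor among them with this E-box. Of all 32544 windows, 20.3% held it. Any E-box, CANNTG, of which CAGGTG is a special case, was present in 72.3% of all windows and, among the 5 factors, again only in *Snai1*. Of 5 epithelial genes described further on that had a window, *Ocln* and *Krt8* held the element, and *Cgn*, *Spint1* and *Klf4* did not. The windows of *Snai1*, *Ocln* and *Krt8* are printed below 5′ to 3′ in the direction of transcription. They are followed by 1 of the 4 windows of *Zeb2*, none of which held the element. *Zeb1* had no window. Capitals mark CAGGTG or CACCTG.
Snai1, chr2:167537945-167538244, forward strand: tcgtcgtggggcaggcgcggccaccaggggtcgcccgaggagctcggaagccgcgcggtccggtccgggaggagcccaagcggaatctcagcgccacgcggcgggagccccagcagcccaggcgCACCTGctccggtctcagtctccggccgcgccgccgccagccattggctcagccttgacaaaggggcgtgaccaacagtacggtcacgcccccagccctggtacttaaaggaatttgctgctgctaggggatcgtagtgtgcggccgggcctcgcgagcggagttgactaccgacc
Ocln, chr13:100552449-100552748, reverse strand: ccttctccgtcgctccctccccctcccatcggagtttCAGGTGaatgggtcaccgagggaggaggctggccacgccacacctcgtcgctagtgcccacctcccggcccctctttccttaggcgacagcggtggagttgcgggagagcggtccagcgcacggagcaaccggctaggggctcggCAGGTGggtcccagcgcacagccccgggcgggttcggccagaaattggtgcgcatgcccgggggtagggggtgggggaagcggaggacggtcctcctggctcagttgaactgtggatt
Krt8, chr15:102004293-102004592, reverse strand: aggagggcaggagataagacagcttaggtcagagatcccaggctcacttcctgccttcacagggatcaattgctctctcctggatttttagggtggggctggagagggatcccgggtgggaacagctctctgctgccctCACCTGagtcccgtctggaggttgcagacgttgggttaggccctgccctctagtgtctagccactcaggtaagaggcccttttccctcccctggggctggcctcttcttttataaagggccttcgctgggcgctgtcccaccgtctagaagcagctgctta
Zeb2, chr2:45117393-45117692, reverse strand: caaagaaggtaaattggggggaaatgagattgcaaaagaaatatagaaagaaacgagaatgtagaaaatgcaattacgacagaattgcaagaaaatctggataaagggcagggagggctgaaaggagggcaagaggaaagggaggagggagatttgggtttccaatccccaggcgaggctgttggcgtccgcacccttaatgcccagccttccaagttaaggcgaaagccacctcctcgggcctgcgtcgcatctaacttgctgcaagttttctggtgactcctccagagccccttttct
In *Snai1* the element began at position -126 from the start. *Ocln* held it at -213 and -68, and *Krt8* at -111. A match of letters is a description of the window and not evidence of binding.

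*Ms4a15* itself, which checks the labels, had a log2 fold change of 12.84 (SE 1.18), with implied means in normalized counts of 1275 (*Ms4a15* OE) and 0.174 (control), so it was at least 449-fold higher against the floor of 3 counts per library. Differences between the groups were widespread. At an adjusted p under 0.05 (Wald test of the authors' DESeq2 fit, recomputed, with Benjamini-Hochberg adjustment over all genes), 42.9% of the 19078 genes differed, with 21.5% higher and 21.5% lower in *Ms4a15* OE. Among the 10440 better expressed genes (mean normalized count 100 or more), 65.6% differed, 30.7% higher and 34.9% lower. Normalized counts are read counts divided by a size factor for each library, and these factors ran from 0.887 to 1.14 over the 6 libraries.

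Of the 9 transcription factors, 8 differed between the groups, 7 higher and 1 lower in *Ms4a15* OE. *Zeb1* fell and its paralog *Zeb2* rose by nearly the same fold. *Snai1*, *Snai2*, *Twist1* and *Prrx1* rose by less than 1.5-fold, and *Twist2* did not pass the test. The 2 epithelial factors, *Grhl2* and *Ovol1*, also rose, from low levels. With 42.9% of all genes and 65.6% of the better expressed genes past the same threshold, a call by itself sets a gene little apart. By the size of its log2 fold change, *Zeb1* exceeded 86.7% and *Zeb2* 86.4% of these 10440 better expressed genes. *Prrx1* exceeded 80.2% of them, *Snai2* 68.3%, *Snai1* 66.1%, *Twist1* 65.5% and *Twist2* 28.2%. The epithelial factors had lower means and were ranked among the 2474 genes with means from 10 to 100, of which *Ovol1* exceeded 85.3% and *Grhl2* 59.4%. With a 1.2-fold change as the null, 4 factors passed (*Zeb1*, *Zeb2*, *Prrx1* and *Ovol1*), while *Snai1*, *Snai2*, *Twist1* and *Grhl2* did not. The median size among the 6848 better expressed genes that differed was 0.37 on the log2 scale. In bulk RNA, a change in the number of cells that express a gene and a change in RNA per cell cannot be told apart.

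**Figure D1:**
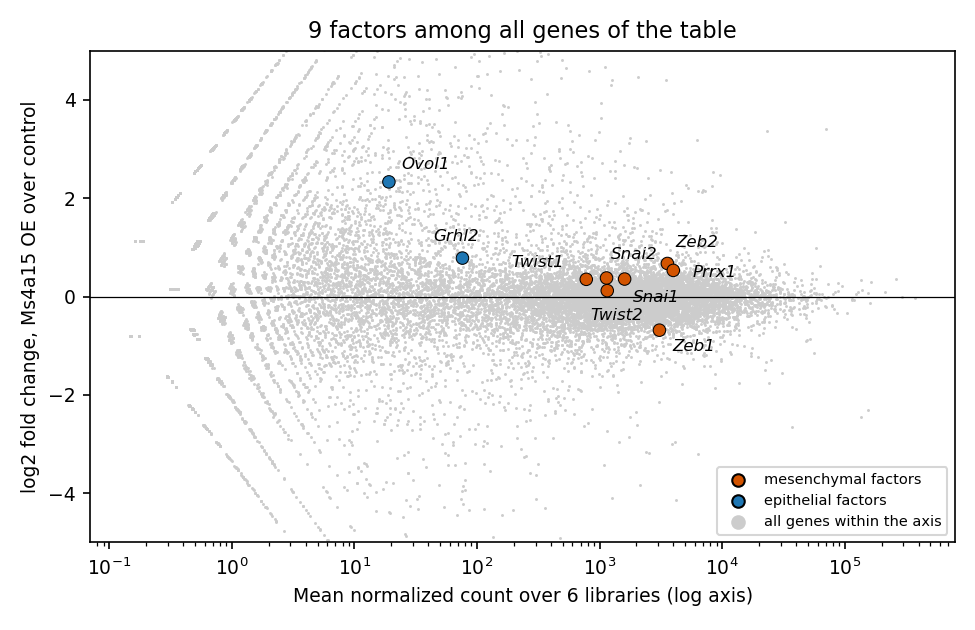
Each gene of the deposited comparison is a point, with its mean normalized count over the 6 libraries on a log x axis and its log2 fold change (*Ms4a15* OE against control) on the y axis. The 9 factors are named, and 8 of them lie above 0 with *Zeb1* alone below it, while 154 genes lie beyond the y axis limits.

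The values of single libraries of the better expressed factors were not analysed here. Their group means are those implied by the overall mean and the fold change, and the error is the standard error (SE) of the log2 fold change. It combines counting error with the variation between libraries that the authors' DESeq2 fit assigned to the gene. The spread between single libraries was not measured for these genes. *Snai1* encodes SNAIL, a zinc finger repressor of *Cdh1*, and lies on chromosome 2 (GRCm38, 167538195 to 167542814, forward strand). The implied mean was 1797 normalized counts for *Ms4a15* OE and 1403 for control, a log2 fold change of 0.36 (SE 0.081, 95% confidence interval 0.20 to 0.52, adjusted p = 4.35e-05), or 1.28-fold higher. *Snai2* encodes SLUG, a close relative also needed in neural crest, and lies on chromosome 16 (14705852 to 14709385, forward strand). *Ms4a15* OE had 1287 normalized counts and control 991, a log2 fold change of 0.38 (SE 0.069, 95% confidence interval 0.24 to 0.51, adjusted p = 1.81e-07), or 1.30-fold higher. The 2 Snail genes thus rose by amounts that could not be separated, with a difference in log2 fold change of 0.02 (95% confidence interval -0.19 to 0.23, taking the estimates as independent).

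*Twist1*, on chromosome 12 (33957671 to 33959829, forward strand), encodes a factor required for cranial mesenchyme. The implied mean was 873 normalized counts for *Ms4a15* OE against 684 for control, a log2 fold change of 0.35 (SE 0.076, 95% confidence interval 0.20 to 0.50, adjusted p = 1.42e-05), or 1.28-fold higher. *Twist2*, also known as Dermo1 and a factor of dermal fibroblasts, lies on chromosome 1 (91801461 to 91848028, forward strand). The means were 1203 and 1106 normalized counts, with a log2 fold change of 0.12 (SE 0.082, 95% confidence interval -0.04 to 0.28, adjusted p = 0.262), so a rise of up to 1.22-fold lies within the interval. The difference between the log2 fold changes of *Twist1* and *Twist2* was 0.23 (95% confidence interval 0.01 to 0.45), which barely excluded 0. Exons of an antisense gene, Gm29100, overlap 46.5% of the exon bases of *Twist2*. The labels call the libraries strand-specific, but whether the counting used strand is not given in the sources used here, so the *Twist2* value is uncertain. With the median log2 fold change of its chromosomal neighbours subtracted (20 on each side, median -0.20), *Twist2* passed the test at 0.32 (adjusted p = 0.000342, Wald test with Benjamini-Hochberg adjustment).

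The Zeb genes moved in opposite directions. *Zeb1*, on chromosome 18 (5591860 to 5775467, forward strand), encodes a zinc finger and homeodomain repressor of epithelial genes. Control had an implied 3793 normalized counts and *Ms4a15* OE 2362, a log2 fold change of -0.68 (SE 0.048, 95% confidence interval -0.78 to -0.59, adjusted p = 7.37e-45), or 1.61-fold lower. *Zeb2*, on chromosome 2 (44983632 to 45117395, reverse strand), encodes a repressor of the same build that also binds SMAD proteins. Here control had 2755 normalized counts and *Ms4a15* OE 4393, a log2 fold change of 0.67 (SE 0.045, 95% confidence interval 0.59 to 0.76, adjusted p = 5.97e-50), or 1.59-fold higher.

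The difference between the 2 log2 fold changes was 1.36 (SE 0.065, 95% confidence interval 1.23 to 1.48, taking the estimates as independent), a 2.56-fold change in the ratio of *Zeb2* to *Zeb1*. The summed normalized counts of both genes were 6755 in *Ms4a15* OE and 6548 in control, a ratio of 1.03. Per kilobase of exon the sum went the other way, with 450.4 in *Ms4a15* OE and 508 in control, a ratio of 0.887. Per kilobase of exon, the ratio of *Zeb2* to *Zeb1* was 0.374 in control and 0.957 in *Ms4a15* OE. Length here counts every annotated exon base of a gene, 10.3 kilobases for *Zeb1* and 19.9 for *Zeb2*. Values per kilobase depend on it, and the transcripts expressed may be shorter. The neighbours of *Zeb1* on chromosome 18 had a median log2 fold change of 0.09 and those of *Zeb2* on chromosome 2 a median of 0.05, both small beside the changes of the genes themselves.

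*Prrx1*, on chromosome 1 (163245119 to 163313710, reverse strand), encodes a homeodomain factor that marks mesenchymal progenitors. It stood at an implied 3264 normalized counts in control and 4722 in *Ms4a15* OE, a log2 fold change of 0.53 (SE 0.049, 95% confidence interval 0.44 to 0.63, adjusted p = 4.53e-26), or 1.45-fold higher. *Prrx1* lies on the same chromosome as *Twist2*, and its neighbours had a median of -0.14. For the 7 mesenchymal factors, the SEs imply, on top of counting error, a coefficient of variation among libraries from 3.38% for *Zeb2* to 6.42% for *Snai1*. This is the variation that the authors' fit assigned, not one measured from single libraries.

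**Figure D2:**
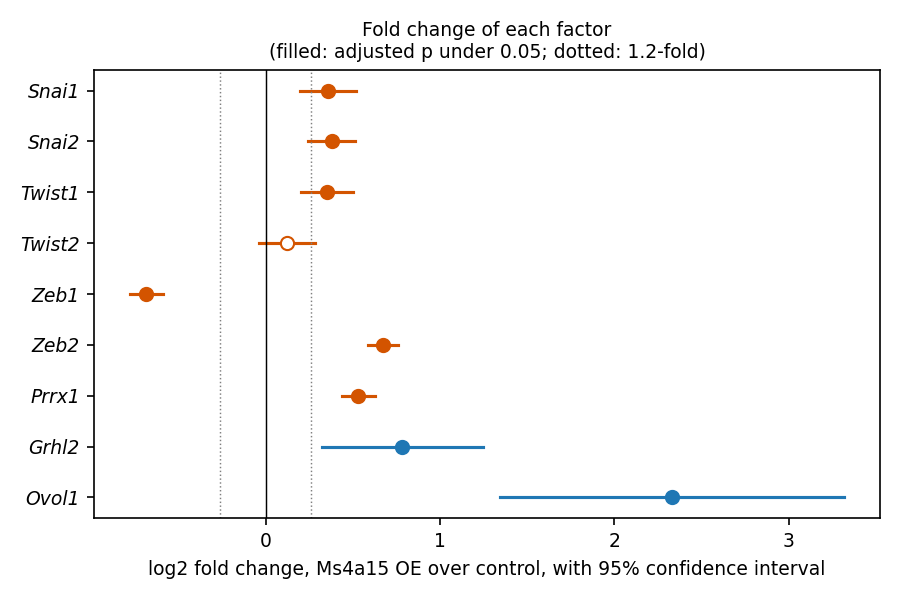
Points give each of the 9 factors' log2 fold change (*Ms4a15* OE against control) and horizontal bars its 95% confidence interval. Only the interval of *Twist2* includes 0, that of *Zeb1* lies below 0 and that of *Ovol1* is the widest.

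The epithelial factors were low enough for whole reads per library to be recovered from the deposited means, fold changes and SEs. *Ovol1*, on chromosome 19 (5549136 to 5560646, reverse strand), encodes a zinc finger repressor of skin and other epithelia. Its 3 *Ms4a15* OE libraries held 26, 35 and 29 reads, and its control libraries 8, 4 and 8. After division by the size factors these were 25.5, 37.3 and 32.7 normalized counts (31.8 ± 5.97, SD, n = 3) against 7.04, 3.62 and 8.45 (6.37 ± 2.49, SD, n = 3). Every *Ms4a15* OE library was above every control library, with a gap of 17.0 normalized counts between the groups. Among the 1653 genes with a mean of 5 to 20 normalized counts whose reads were recovered, groups that did not overlap were common: 48.1% showed this and 31.6% with *Ms4a15* OE on top. This was a log2 fold change of 2.33 (SE 0.50, 95% confidence interval 1.35 to 3.32, adjusted p = 1.41e-05), or 5.04-fold higher with an interval from 2.54 to 9.98.

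*Grhl2*, on chromosome 15 (37233036 to 37363569, forward strand), encodes a factor that sustains *Cdh1* and tight junction genes in epithelia. The read set closest to the deposited values gave its *Ms4a15* OE libraries 112, 74 and 89 reads, and its control libraries 73, 66 and 41. Normalized, these were 109.7, 78.9 and 100.4 (96.3 ± 15.8, SD, n = 3) against 64.2, 59.7 and 43.3 (55.7 ± 10.99, SD, n = 3). In this set the groups did not overlap, with a gap of 14.6 normalized counts between the lowest *Ms4a15* OE and the highest control library. The share of genes without overlap was not computed at the level of *Grhl2*, whose overall mean was 76.0, so this gap does not set it apart. This gave a log2 fold change of 0.78 (SE 0.24, 95% confidence interval 0.32 to 1.24, adjusted p = 0.00265), or 1.72-fold higher with an interval from 1.25 to 2.37. A second set, with 24, 93 and 148 reads against 94, 25 and 58, also came within the tolerance used (2.98e-06 from the deposited log2 fold change, against 1.27e-07), and in it the groups overlapped. The fold change, SE and adjusted p do not depend on which set holds, whereas the values of single libraries do. Leaving out each of the 6 libraries in turn gave log2 fold changes from 2.04 to 2.57 for *Ovol1* and from 0.64 to 0.91 for the closest set of *Grhl2*, each time past the threshold.

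Exons of a pseudogene on the opposite strand, Gm31166, overlap 19.8% of the exon bases of *Ovol1*, so part of its reads may not be its own, which was not tested. *Ovol1* lies on the chromosome that carries *Ms4a15*, among neighbours with a median log2 fold change of -0.32, opposite in sign to its own. *Grhl2* had neighbours with a median of 0.16. For *Ovol1* only 1 set of whole reads gave the deposited mean, and for *Grhl2* 3010 sets did, of which 2 were within the tolerance.

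**Figure D3:**
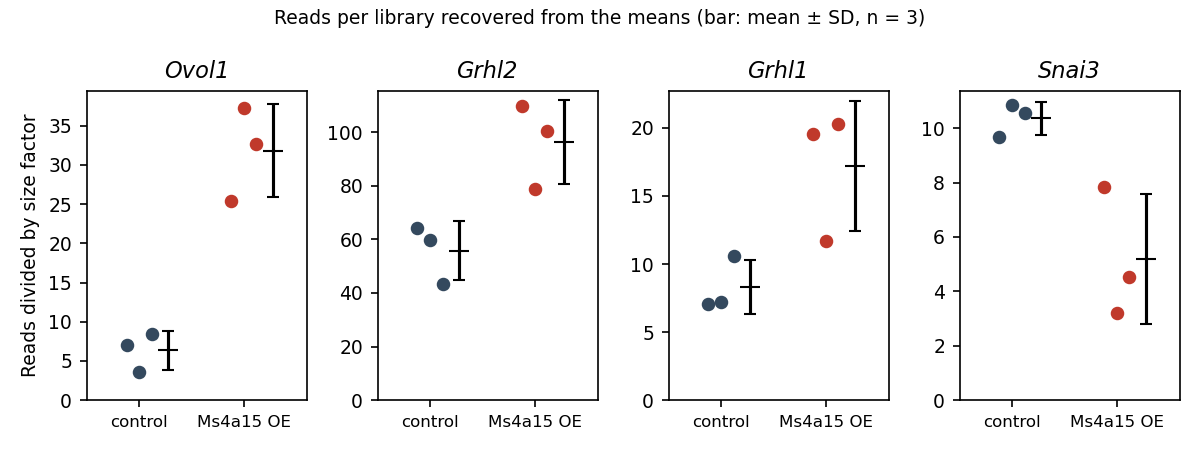
Each point is the normalized count of a single library for genes whose whole reads were recovered, with horizontal bars at the mean of 3 libraries and vertical bars of 1 SD. For *Ovol1* the *Ms4a15* OE libraries lie between 25.5 and 37.3 and the control libraries between 3.62 and 8.45. For *Grhl2* the closest read set is drawn.

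Levels of different genes were compared per kilobase of exon, over all annotated exon bases of a gene. The order of genes below depends on these lengths, which may exceed those of the transcripts expressed. In control cells *Snai1* was highest, with 866 normalized counts per kilobase, followed by *Snai2* at 490, *Twist1* at 420, *Zeb1* at 369, *Twist2* at 348, *Prrx1* at 295 and *Zeb2* at 138. *Grhl2* at 6.49 and *Ovol1* at 1.81 were far below. Ranges of *Zeb1* (353 to 386) and *Twist2* (322 to 377) overlapped, so the order of these neighbours is not set. These ranges are confidence intervals of each group mean taken singly, and do not come from the interval of the fold change. In *Ms4a15* OE the levels were 1109 for *Snai1*, 637 for *Snai2*, 536 for *Twist1*, 427 for *Prrx1*, 379 for *Twist2*, 230 for *Zeb1* and 220 for *Zeb2*. *Grhl2* stood at 11.2 and *Ovol1* at 9.14. The order changed for *Prrx1*, which moved above *Twist2* (407 to 447 against 350 to 410, just overlapping). It also changed for *Zeb1*, which stood above *Twist2* and *Prrx1* in control and below both in *Ms4a15* OE. *Zeb1* stayed above *Zeb2*, but its range (219 to 241) now overlapped that of *Zeb2* (211 to 230). The ranges of *Grhl2* (8.98 to 13.9) and *Ovol1* (6.13 to 13.6) overlapped as well. The 7 mesenchymal factors summed to 3538 per kilobase in *Ms4a15* OE and 2927 in control, and the 2 epithelial factors to 20.3 and 8.30. The mesenchymal factors therefore remained the far more abundant class in both groups.

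**Figure D4:**
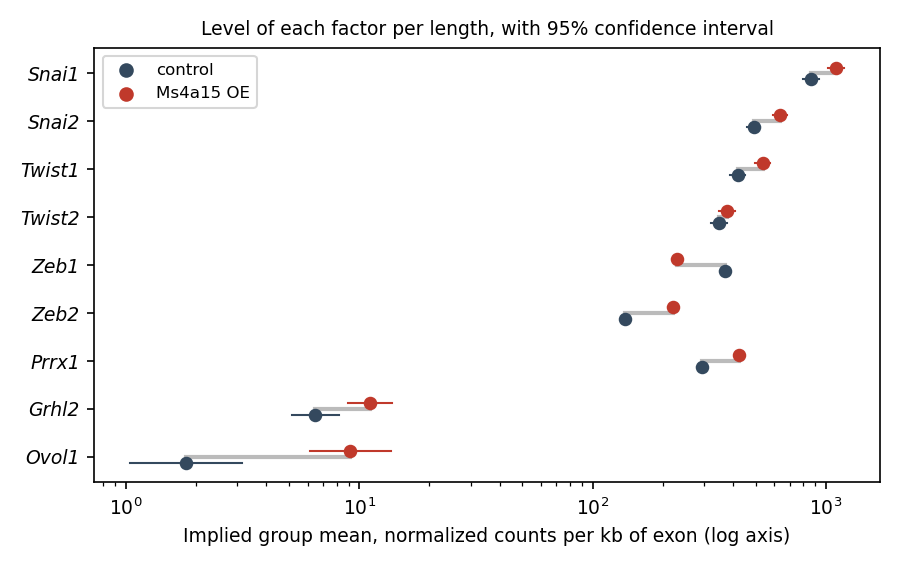
Implied group means per kilobase of exon are drawn on a log axis for the 9 factors, with *Ms4a15* OE and control as separate points. Bars give the 95% confidence interval of each group mean. The 7 mesenchymal factors lie between 138 and 1109 and the 2 epithelial factors between 1.81 and 11.2.

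Of 10 further relatives in the same families, 3 were in the table and none of them passed the test (*Prrx2*, *Grhl1* and *Snai3*). They are named here after their values were seen. *Prrx2* had a log2 fold change of 0.17 (adjusted p = 0.113). *Grhl1* had 20, 11 and 18 reads in *Ms4a15* OE and 8, 8 and 10 in control (log2 fold change 1.07, adjusted p = 0.111). *Snai3* had 8, 3 and 4 reads against 11, 12 and 10 (-0.99, adjusted p = 0.285). For *Grhl1* and *Snai3* the groups did not overlap, as in 48.1% of the recovered genes with a mean of 5 to 20. Neither passed the test, even before the adjustment over all genes. *Grhl3*, *Ovol2*, *Ovol3*, *Scrt1*, *Scrt2*, *Hand1* and *Hand2* were not analysed here.

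Among dimer partners of Twist proteins and the ID proteins that compete for them, 6 of 7 were in the table, of which 1 was higher, 3 were lower and 2 did not pass. The median log2 fold change of these 6 was -0.27, against 0.04 over all genes. *Tcf4*, an E protein (E2-2), fell from 3000 to 1683 normalized counts (log2 fold change -0.83, adjusted p = 5.17e-62). The ID genes were split: *Id2* fell (-0.67, adjusted p = 2.00e-52), *Id3* fell (-0.38, adjusted p = 0.00509) and *Id1* rose (0.19, adjusted p = 0.0034). The E proteins *Tcf3* (-0.17) and *Tcf12* (-0.0048) did not pass the test.

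Corepressors and chromatin proteins recruited by Snail and Zeb factors were mixed, with 2 higher, 4 lower and 7 not past the test of 13 in the table, and a median of 0.03. *Ctbp1*, the corepressor of Zeb proteins, fell (-0.58, adjusted p = 7.04e-21), as did *Kdm1a*, the histone demethylase recruited by SNAIL (-0.47, adjusted p = 8.61e-23). *Wtip*, an LIM protein of the Ajuba family, fell (-0.56, adjusted p = 6.70e-13), and *Hdac2*, a histone deacetylase, fell slightly (-0.12, adjusted p = 0.016). *Sin3a*, a scaffold of deacetylase complexes, rose (0.20, adjusted p = 6.43e-06), as did *Eed*, a Polycomb subunit (0.14, adjusted p = 0.0256).

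SNAIL and TWIST proteins are short-lived, and RNA does not report their protein levels. Of 13 genes that control their stability or location, 4 were higher, 3 lower and 6 not past the test, with a median of 0.04. *Usp27x*, a deubiquitinase of SNAIL, rose (0.66, adjusted p = 4.35e-08). The kinase genes *Lats2* (0.22) and *Csnk2a1* (0.11) and *Fbxl5*, a ubiquitin ligase subunit that targets SNAIL (0.21), rose by less. *Fbxw7*, another ligase subunit, fell (-0.40, adjusted p = 4.75e-07), with the polarity gene *Pard3* (-0.31) and the kinase gene *Pak1* (-0.20).

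Other regulators of epithelial identity were mostly near the detection floor. Of 10 in the table, 3 were higher, 1 was lower and 6 did not pass, and 4 were under the floor in both groups. The median over all 10 was -0.80, and over the 2 whose mean was at least 10 it was 1.03. Those 2 are *Klf5*, which rose from 231 to 567 normalized counts (log2 fold change 1.29, adjusted p = 8.50e-34), and *Klf4*, which rose from 699 to 1187 (0.76, adjusted p = 9.72e-26). Both encode Krüppel-like factors of epithelia, but KLF4 is also made by fibroblasts. *Trp63*, the factor of stratified epithelia, had 17, 10 and 18 reads in *Ms4a15* OE and 3, 2 and 2 in control (adjusted p = 0.000764). *Elf5* moved the other way, with 2, 2 and 0 reads against 7, 9 and 8 (adjusted p = 0.049).

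Of 34 epithelial genes that Snail, Zeb, Grhl or Ovol factors are known to act on, 28 were in the table: 5 were higher, 4 lower and 19 not past the test. Of these 28, 9 were under the floor in both groups. *Cdh1*, the classical target, was nearly silent, with 2, 2 and 1 reads in *Ms4a15* OE and 1, 1 and 0 in control (adjusted p = 0.598). *Ocln*, which encodes the tight junction protein occludin and whose promoter is printed above, rose most. It went from an implied 5.64 normalized counts in control to 585 in *Ms4a15* OE (log2 fold change 6.69, SE 0.36, adjusted p = 4.80e-77), or 104-fold higher.

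Other epithelial genes moved in both directions. *Cgn*, which encodes the tight junction protein cingulin, fell, with 19, 8 and 2 reads against 166, 159 and 133 (-3.85, adjusted p = 6.83e-10). *Krt8*, a keratin of simple epithelia, had 15, 16 and 18 reads against 2, 8 and 4 (1.98, adjusted p = 0.00603). *Spint1*, an inhibitor of serine proteases at epithelial surfaces, had 44, 55 and 45 against 15, 13 and 18 (1.81, adjusted p = 3.12e-06). In each of these 3 genes the groups did not overlap, which 48.1% of the recovered genes with a mean of 5 to 20 also showed. Of the 3, only *Krt8* has a mean in that range. No such share was computed for the levels of *Cgn* and *Spint1*. *Pkp3* (1.28) and *St14* were also higher, and *Pkp2* (-1.15), *Llgl2* (-0.86) and *Muc1* (-0.81) lower. These 5 are named after their values were seen. Over the 10 of them whose mean was at least 10, the median log2 fold change was -0.28, with 4 higher and 4 lower.

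Of 26 mesenchymal target and marker genes, all in the table, 4 were higher, 16 lower and 6 not past the test, with a median log2 fold change of -0.60. *Col1a1*, which encodes a chain of type I collagen, fell from 128302 to 5659 normalized counts (-4.50, adjusted p = 4.07e-290). *Col3a1* fell from 7274 to 933 (-2.96). *Postn*, which encodes the matrix protein periostin, had an implied 265 normalized counts in control and was at least 83.6-fold lower in *Ms4a15* OE. *Mmp3*, a matrix protease gene, had 5, 5 and 1 reads against 79, 70 and 56 (-4.06, adjusted p = 5.40e-14).

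*Acta2* (smooth muscle actin, -2.07) and *Sparc* (-0.36) were among the lower genes, and *Fn1* (fibronectin, -0.05) did not pass the test. *Cdh2* (N-cadherin) rose slightly, from 5922 to 7174 normalized counts (0.28, adjusted p = 2.86e-12). *Vim* (vimentin) had 112480 in *Ms4a15* OE and 117789 in control (-0.07, adjusted p = 0.117). The other mesenchymal genes that rose were *S100a4* (1.37), *Cd44* (0.59) and *Tnc* (0.41). *Acta2*, *Sparc*, *Fn1*, *Cd44* and *Tnc* are named after their values were seen. The collagen genes thus fell while 5 of the 7 mesenchymal factors rose.

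**Figure D5:**
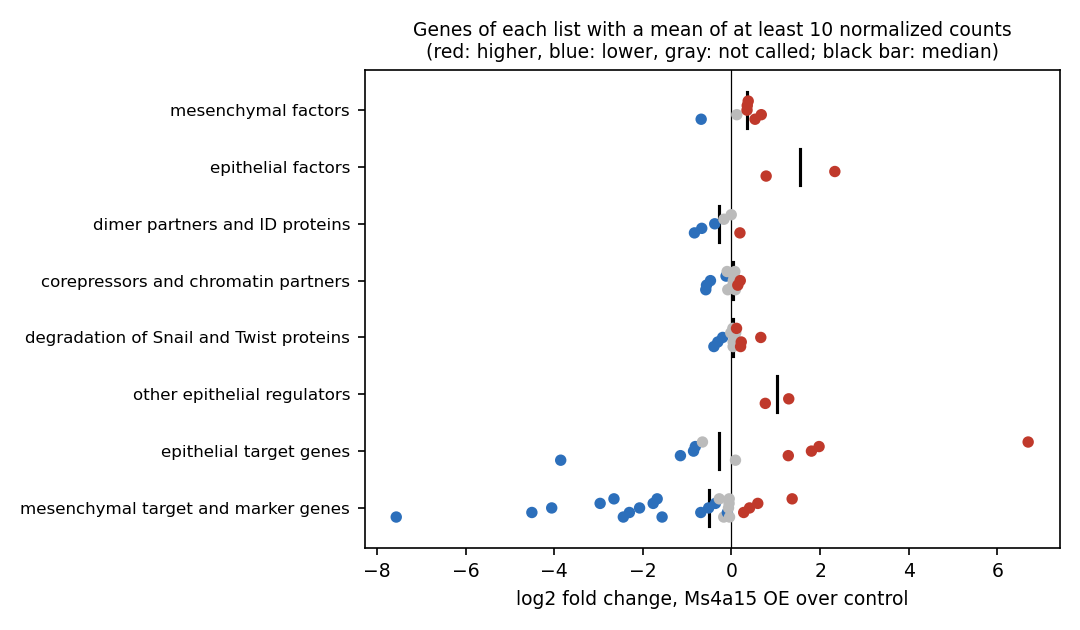
Each point is the log2 fold change of a gene of the named list whose mean normalized count was at least 10, and each vertical bar is the median of those genes. The median of the mesenchymal factors is 0.36, and that of the mesenchymal target and marker genes is -0.51.

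The labelled cell type was checked with marker genes. Of 11 fibroblast markers 10 were in the table, 4 higher and 4 lower, with summed normalized counts of 181684 in *Ms4a15* OE and 493843 in control. The lower ones were *Col1a1*, *Col1a2* (-2.44), *Col3a1* and *Pdgfrb*, a growth factor receptor gene that fell from 4018 to 283 normalized counts (-3.83). The higher ones were *Thy1* (0.69), *Pdgfra* (0.60), *S100a4* and *Dcn*, the gene of the matrix protein decorin, which had 22, 24 and 21 reads in *Ms4a15* OE and 1, 1 and 0 in control (adjusted p = 1.33e-05). *Lum* was near the floor, with 1 read in each *Ms4a15* OE library and 1, 0 and 0 in control. Of 8 epithelial markers 7 were in the table, 1 higher (*Krt8*) and none lower, with sums of 23.4 and 6.99 normalized counts, and 5 of them were under the floor in both groups. *Epcam* had 1 read in 1 control library and no read in the others. Of 10 myeloid markers 8 were in the table, 2 higher and none lower, with sums of 1727 and 492. *Lyz2* rose from 40.7 to 1026 normalized counts (4.65) and *Cd68* from 67.1 to 261 (1.96). *Cd14*, which did not pass the test, made up 349 of the control sum. Of 6 endothelial markers 5 were in the table, 2 higher (*Pecam1*, 2.04, and *Cdh5*, 2.85) and none lower, with sums of 216 and 34.7. *Ptprc*, the defining leukocyte gene, had 5, 9 and 7 reads in *Ms4a15* OE and 20, 11 and 16 in control. It did not pass the Wald test (adjusted p = 0.184). The marker genes that passed move with the group, as *Grhl2* and *Ovol1* do, and their part in the results was not tested.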

How the data were processed

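RNAseq libraries (3 *Ms4a15* OE, 3 control) were grouped by the genotype in the labels. Per the study's methods, reads were aligned with STAR to mm10 and counted with HTSeq-count, whereas the submitters' notes also name TopHat, Cufflinks and Cuffdiff. Strand setting of the counting and read totals are not given in the sources used here. As signal, the authors deposited each gene's mean over 6 libraries of counts divided by size factors. Fold changes and SEs in the deposited table are on the log2 scale, and each p-value in the deposited table is the authors' DESeq2 Wald test. The table holds these results of the authors' comparison rather than counts, so edgeR could not be run. Wald p-values were recomputed from log2 fold change and SE, Benjamini-Hochberg adjusted over all 19078 genes and called at 0.05, and differed from the listed ones by at most 7.93e-07.

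Group means were implied from the overall mean and fold change. Size factors were started from genes with a lone read in the whole series, whose group was given by the sign of the deposited fold change. They were then refitted to all genes with a mean under 1.5. Which replicate number a library has is unknown. The precision that depth gives is stated as a floor of 3 counts per library, or 3.17 (*Ms4a15* OE) and 2.84 (control) normalized counts, which covers counting error only. Whole reads were recovered up to a mean of 100 where a set gave the deposited mean and the log2 fold change within 1e-05, with any other set at least 10 times further off. Of genes with a mean of 5 to 20, 97.1% were recovered. All 3668 genes with a mean under 1.5 were whole reads in 1 way, which is no independent check because the size factors were fitted to them. Exon lengths (all annotated exons of a gene joined) and positions came from GENCODE on GRCm38, which may differ from the gene models counted, and promoters from RefSeq.

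Named are the 9 members, *Ms4a15*, *Cdh1*, *Cdh2*, *Vim*, genes called in lists of at most 15 genes, and the 4 called genes with the largest fold change and a mean of at least 10 in longer lists. Members and lists were chosen with earlier results of these data known. Alternatives were a log2 fold change of at least 1, a test against 1.2-fold, adjustment over means of at least 10, centring, and subtraction of neighbouring genes. The procedure was tested on simulated data. Python 3.11.15 with numpy 2.4.6, pandas 2.3.3, scipy 1.17.1 and matplotlib 3.10.9 was used.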

Additional observations from a re-analysis of the deposited data

How the results depend on the processing

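Of the 9 factors, 8 passed the test. A minimum log2 fold change of 1 on top of the test left 1, *Ovol1*, and a Wald test against a 1.2-fold change left 4, *Zeb1*, *Zeb2*, *Prrx1* and *Ovol1*. In that test the adjusted p (Benjamini-Hochberg) was 0.796 for *Snai1*, 0.373 for *Snai2*, 0.782 for *Twist1* and 0.129 for *Grhl2*. Over all genes these alternatives called 1944 and 3591 genes in place of 8187. The count stayed at 8 with adjustment over genes whose mean was at least 10 and after centring, and was 9 with neighbouring genes subtracted, *Twist2* being the addition. No factor changed direction under any of these. Leaving out each library in turn, an alternative chosen after seeing the data and possible only for *Grhl2* (closest read set) and *Ovol1*, kept both past the threshold, with adjusted p from 0.00146 to 0.0347 and from 2.01e-05 to 0.000802 (Wald test, dispersion of the full fit). No paired analysis was possible because the deposited table holds no values by replicate number. Leaving out replicates was not run for the other 7 factors, whose means are above the 100 normalized counts up to which whole reads were recovered. Depth limits the 4 epithelial regulators and 9 epithelial genes under the floor in both groups, whose differences were not detectable.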
